A study of Mus musculus with 3 samples.

Results

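The glutathione S-transferase genes examined here were 10 named members of the cytosolic and microsomal families (Gsta4, Gstm1, Gstm2, Gstm5, Gstp1, Gsto1, Gstz1, Mgst1, Mgst2 and Mgst3), out of 41214 gene identifiers counted in cultured mouse keratinocytes. They were chosen by name, and each matched 1 gene identifier. Keratinocytes form the outer layer of the skin. The 3 libraries came from an ARPC4 ko culture, a Nrf2-EGFP culture, described as expressing EGFP-Nrf2 (EGFP is a green fluorescent protein), and a wt culture, with 1 library per genotype. All of them were of the C57BL/6 strain, immortalised with sv40 and growing exponentially, and no treatment was given. The title of the ARPC4 ko library contains the word Cre and that of the Nrf2-EGFP library the word High. The sources used here do not give whether a culture was 1 clone, what drove Cre or EGFP-Nrf2, or the age of the source animals. With 1 library per genotype the spread between cultures was not measured, so no p-value is given and every range in parentheses is a 95% interval of counting error only. In bulk RNA, fewer expressing cells and less RNA per cell cannot be told apart.

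Glutathione S-transferases join the thiol of glutathione to electrophiles such as oxidised lipids and drugs, and the conjugates are then exported from the cell. The cytosolic enzymes fall into classes named by Greek letters, whereas the microsomal enzymes are unrelated membrane proteins of the MAPEG family, some of which make eicosanoids. Several of the genes carry antioxidant response elements and are textbook targets of Nrf2, the transcription factor that is held in check by Keap1. ARPC4 belongs to the Arp2/3 complex, the machine that starts branched actin filaments. By its title, the series asks about Nrf2 activity in epidermis that lacks this complex.

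Gene counts were between 22924294 and 25723959 per library. Arpc4 had 61.0 CPM (the count relative to library size, after TMM scaling for composition) in the library labelled ARPC4 ko, 98.4 CPM in Nrf2-EGFP and 94.2 CPM in wt, and Nfe2l2, which encodes Nrf2, had 179 CPM in ARPC4 ko, 166 CPM in the library labelled Nrf2-EGFP and 225 CPM in wt. Against wt, the library labelled ARPC4 ko had 1.54-fold (1.44 to 1.65) less Arpc4, and Nfe2l2 was lowest, not highest, in the library labelled Nrf2-EGFP. Which part of Arpc4 was deleted and which sequence the Nrf2 construct carries are unknown here, so every direction below is for libraries named by their labels. All 10 keratinocyte markers were above the filter in the 3 libraries, with summed levels of 16278 CPM in ARPC4 ko, 21374.8 CPM in Nrf2-EGFP and 26970.3 CPM in wt. Krt5 and Krt14 carried most of that difference, at 4260 and 3249 CPM in ARPC4 ko against 8997 and 7378 CPM in wt. Perp, Sfn, Dsp, Itga6 and Cdh1 were lower as well, at 736, 1132, 2062, 430 and 962 CPM in ARPC4 ko. In wt they had 1234, 1758, 2606, 560 and 1078 CPM in that order. The remaining markers, Trp63, Col17a1 and Itgb4, had 353, 2123 and 971 CPM in ARPC4 ko against 299, 2081 and 980.3 CPM in wt. The part of these markers in the results below was not tested. Fibroblast, immune, melanocyte and endothelial marker lists summed to at most 5.35 CPM each in any library, and Col1a2, Dcn, Cd3e, Lyz2, Tyr and Sox10 had 0 counts in all 3. Other markers on these lists had reads. Mitf reached 4.44 CPM in ARPC4 ko, Twist2 2.54 CPM and Pdgfra 1.85 CPM in Nrf2-EGFP, and Pecam1 1.25 CPM in wt, all above the filter.

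How much of each gene a read could identify differed within the family, because several genes arose by duplication. Reads were 65 bases long. In the GENCODE M21 transcripts of Gstp1 (chromosome 19, 4035407 to 4037985, minus strand, GRCm38), 30.9% of the distinct 65-base windows were identical in another gene and 36.4% lay within 2 mismatches of one. In Gstm1 (chromosome 3, 108012255 to 108017973, minus strand) the shares were 14.1% and 35.9%. The values were 3.04% and 8.39% in Gstm2, at most 1.78% within 2 mismatches in Gstz1, Mgst2 and Mgst3, and 0 in Gsta4, Gstm5, Gsto1 and Mgst1. The counts of Gstp1 and Gstm1 are therefore uncertain in level. Only annotated transcripts were searched, so unannotated copies are not covered.

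**Figure D1:**
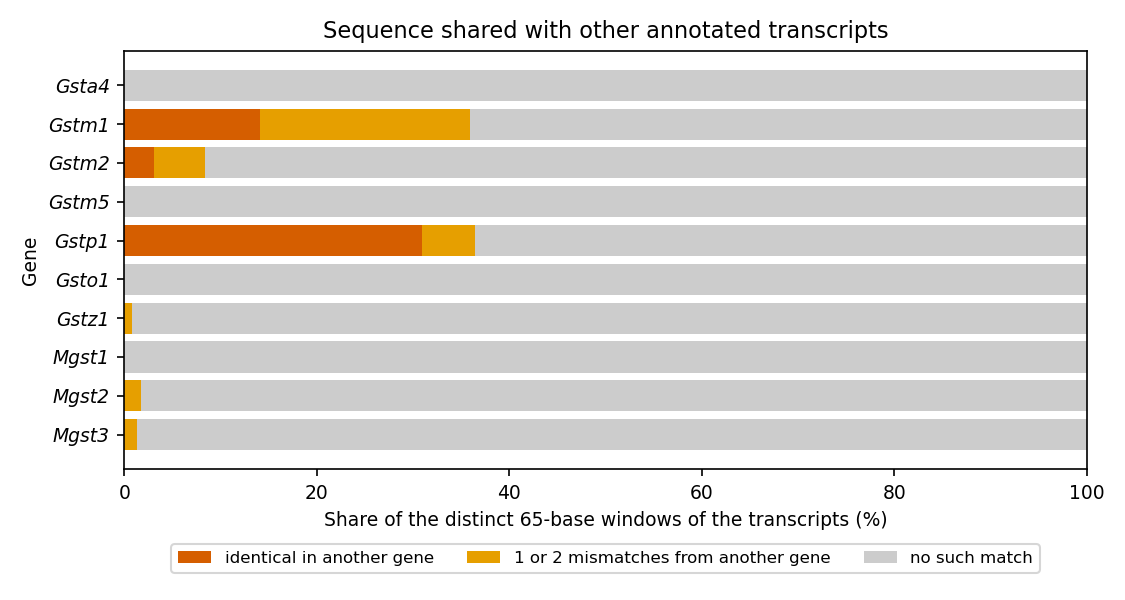
Share (%) of the distinct 65-base windows in the transcripts of each gene (rows) that were identical in another annotated gene (red), 1 or 2 mismatches from one (orange) or without such a match (grey). Gstp1 and Gstm1 stand out, with 36.4% and 35.9% within 2 mismatches, and 4 genes have none.

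The start of the coding sequence is a stretch where Gstm2, Gstm3 and Gstm4 can be told from Gstm1, and Gstp2 from Gstp1, by more than 2 bases in 65. Other genes of these classes and pseudogenes were not compared over this stretch. The first 65 coding bases from GENCODE M21 (GRCm38, coding strand, 5′ to 3′) are given below, with capitals at bases that differ from the first gene of each class.
Gstm1: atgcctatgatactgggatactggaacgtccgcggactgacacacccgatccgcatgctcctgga
Gstm2: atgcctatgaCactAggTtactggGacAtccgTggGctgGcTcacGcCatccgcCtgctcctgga
Gstm3: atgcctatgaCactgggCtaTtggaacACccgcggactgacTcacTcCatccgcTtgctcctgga
Gstm4: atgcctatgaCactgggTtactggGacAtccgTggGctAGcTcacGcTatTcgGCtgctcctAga
Gstp1: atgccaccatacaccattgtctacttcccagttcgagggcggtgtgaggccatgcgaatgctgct
Gstp2: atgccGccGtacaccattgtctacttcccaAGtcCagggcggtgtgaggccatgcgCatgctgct
Gstm3 differs from Gstm1 at 9 of these bases, Gstm2 at 12 and Gstm4 at 15, and Gstp2 differs from Gstp1 at 6. As a share of the shorter coding sequence, Gstp1 and Gstp2 were identical at 98.1% of positions, with an unbroken identical run of 303 bases. Gstm1 and Gstm3 were identical at 89.5%, with a run of 112 bases, longer than a read. The longest coding sequence of each gene was used, with 735 bases in Gstm1 and 657 in Gstm3. Processed pseudogenes were close as well. Windows of Gstm1 lay within 2 mismatches of Gstm2-ps1 for 31.6% and of Gstm3 for 16%, and windows of Gstp1 lay that near to Gstp2 for 36.4% and to Gstp-ps for 26.4%. Counts of Gstm2-ps1 and Gstp-ps were not analysed here. Of the gene copies, Gstp2 had 1 count in ARPC4 ko, 4 in Nrf2-EGFP and 4 in wt, and Gstm3 had 3 counts in ARPC4 ko, 0 in Nrf2-EGFP and 0 in wt. Gsta4, in contrast, was identical to Gsta1, its neighbour on chromosome 9, at only 65.8% of coding positions by the same measure.

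Levels spanned a wide range, and Gsto1 dominated in all 3 libraries. The 10 genes summed to 426 CPM in ARPC4 ko, 526 CPM in Nrf2-EGFP and 572 CPM in wt, of which Gsto1 made up 65.4%, 68.9% and 73.4% in that order of libraries. Without Gsto1 the sum was 147 CPM in ARPC4 ko, 164 CPM in Nrf2-EGFP and 152 CPM in wt. Levels of different genes were compared as CPM per kilobase of merged exons. Bases shared with other genes were not taken out of that length. The places of Gstp1 (30.9% of windows identical in another gene) and Gstm1 (14.1%) in the orders below are therefore uncertain beyond their counting intervals. In ARPC4 ko, Gsto1 had 138 CPM per kilobase, followed by Gstp1 (28.8), Mgst3 (27.3), Gstm5 (12.4), Gsta4 (11.9), Gstz1 (5.85), Gstm1 (5.17), Mgst1 (1.80), Gstm2 (0.270) and Mgst2 (0.133), all in that unit. The counting intervals of neighbours overlapped for Gstp1 and Mgst3, Gstm5 and Gsta4, Gstz1 and Gstm1, and Gstm2 and Mgst2. In Nrf2-EGFP the level of Gsto1 was 179 CPM per kilobase, then Mgst3 41.6, Gstp1 33.7, Gsta4 21.04, Gstm5 6.24, Gstz1 5.19, Gstm1 2.30, Mgst1 0.460, Gstm2 0.120 and Mgst2 0.0435. Here only Gstm5 and Gstz1, and Gstm2 and Mgst2, had overlapping intervals. In wt Gsto1 had 208 CPM per kilobase, then Mgst3 45.1, Gstp1 30.9, Gstm5 7.79, Gsta4 6.18, Gstz1 5.73, Gstm1 2.14, Mgst1 1.41, Mgst2 0.432 and Gstm2 0.212. Intervals overlapped along the run Gstm5, Gsta4 and Gstz1, between Gstm1 and Mgst1, and between Mgst2 and Gstm2. Gsta4 stood above Gstm5 in this order in Nrf2-EGFP alone, and there its interval lay clear of both neighbours. Among the genes above the filter, the level of Gsta4 per kilobase was at the 62.8th percentile in ARPC4 ko, the 76.6th in Nrf2-EGFP and the 44.6th in wt.

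**Figure D2:**
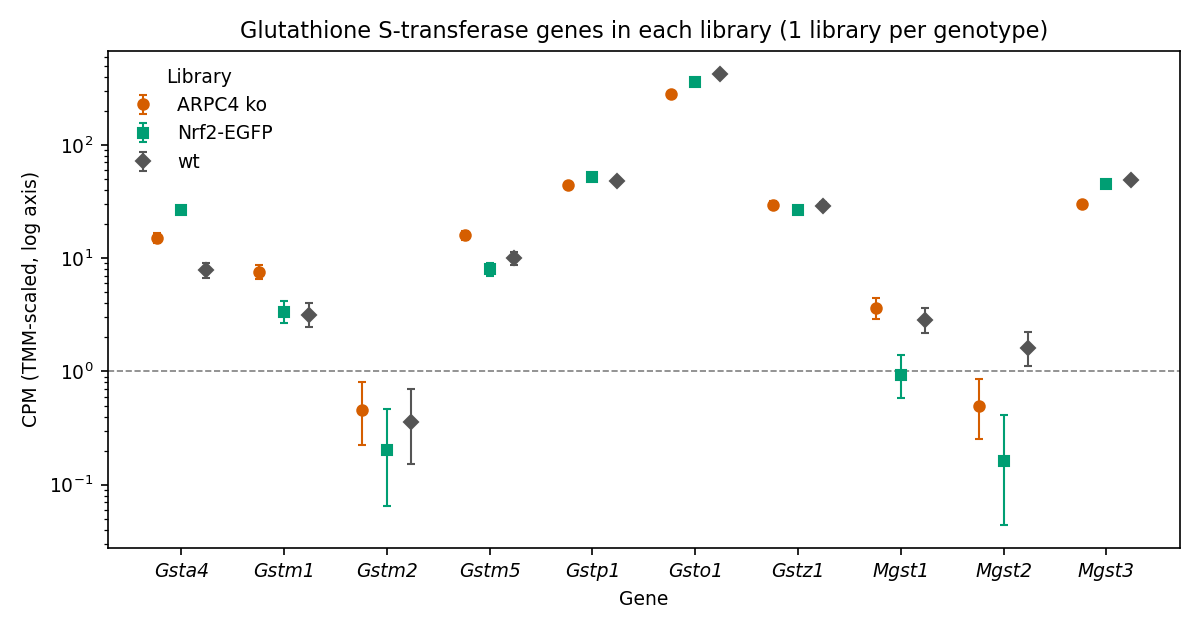
CPM (TMM-scaled, log axis) of each gene in the ARPC4 ko (circles), Nrf2-EGFP (squares) and wt (diamonds) libraries, with exact 95% Poisson intervals of the counts and a dashed line at the filter of 1 CPM. Gsto1 lies highest, between 279 and 420.2 CPM, and Gstm2 lies below the line in all 3 libraries.

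Gsta4, an alpha-class enzyme with high activity toward the aldehydes of lipid peroxidation, was higher in both engineered libraries than in wt. It lies on chromosome 9 (78182774 to 78209349, plus strand). Gsta4 had 365 counts (15.0 CPM) in ARPC4 ko, 662 counts (26.6 CPM) in Nrf2-EGFP and 176 counts (7.83 CPM) in wt. The 3 counting intervals did not overlap, and the order was Nrf2-EGFP, ARPC4 ko, wt. The ratio of scaled counts was 3.40 (2.88 to 4.04) for Nrf2-EGFP over wt, which was past the 2-fold size rule. That rule asks for a log2 ratio of CPM + 0.5 of at least 1 in size and a counting interval of the ratio that excludes 1. The log2 ratio was 1.70, and 101 of the 11865 genes above the filter had a larger positive one. For ARPC4 ko over wt the ratio was 1.92 (1.60 to 2.31), short of the rule with a log2 ratio of 0.90. The next gene on one side, Ick, a kinase gene, had 18.6 CPM in ARPC4 ko, 20.7 CPM in Nrf2-EGFP and 13.2 CPM in wt. Gsta1, the alpha-class gene on the other side, had 12 counts in ARPC4 ko, 15 in Nrf2-EGFP and 2 in wt and lay below the filter of 1 CPM.

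The mu-class genes, which encode transferases of broad substrate range, lie together on chromosome 3. Of the 7, 1 (Gstm1) was past the size rule, as higher in ARPC4 ko than in wt and than in Nrf2-EGFP. Of all genes above the filter, 6.76% passed in ARPC4 ko against wt and 2.98% in ARPC4 ko against Nrf2-EGFP. Among those averaging under 10 CPM, where Gstm1 lies, the shares were 17.7% and 9.7%. All 7 had more CPM in ARPC4 ko than in the other libraries, but most had few counts. The share of all genes with more CPM in ARPC4 ko was not counted. Their median log2 ratio was -0.01 against wt and -0.02 against Nrf2-EGFP. The interval excluded 1 for 4 of the 7 in ARPC4 ko against wt, beside 66.3% of all genes above the filter. In ARPC4 ko against Nrf2-EGFP it did so for 5 of the 7, beside 55.4%. The share of 4 of the 7 in ARPC4 ko against wt is no larger than that of all genes above the filter. The sets are unlike, because Gstm2, Gstm3, Gstm6 and Gstm7 lay below the filter. Gstm1 had 185 counts (7.61 CPM) in ARPC4 ko, 84 counts (3.38 CPM) in Nrf2-EGFP and 71 counts (3.16 CPM) in wt. Its ARPC4 ko value stood apart, and the intervals of the other libraries overlapped. The ratio of Gstm1 was 2.41 (1.82 to 3.22) for ARPC4 ko over wt, past the size rule, and 1.07 (0.77 to 1.49) for Nrf2-EGFP over wt. Gstm5 (107895821 to 107898686, plus strand), the most divergent mu-class gene and the most abundant of them, had 386 counts (15.9 CPM) in ARPC4 ko, 198 counts (7.97 CPM) in Nrf2-EGFP and 224 counts (9.96 CPM) in wt. Again ARPC4 ko was the high library, with a ratio over wt of 1.59 (1.35 to 1.89) that did not reach the rule. For Nrf2-EGFP over wt the ratio of Gstm5 was 0.80 (0.66 to 0.97). An antisense gene, 4933431E20Rik, overlaps 13.9% of the exon bases of Gstm5, and the sources used here do not say whether the counting used strand. Gstm2 (107981702 to 107986453, minus strand) had 11 counts in ARPC4 ko, 5 in Nrf2-EGFP and 8 in wt. It was the member below the filter, and its ratio for ARPC4 ko over wt, 1.27 (0.47 to 3.64), shows no difference detectable at this depth.

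Along the cluster, the remaining mu-class genes were read in the same order of position. Gstm7 had 12 counts in ARPC4 ko, 0 in Nrf2-EGFP and 1 in wt, and Gstm6 had 18 in ARPC4 ko, 6 in Nrf2-EGFP and 4 in wt. Gstm4 had 89 counts (3.66 CPM) in ARPC4 ko, 54 (2.17 CPM) in Nrf2-EGFP and 63 (2.80 CPM) in wt, and its ARPC4 ko over wt interval, 0.94 to 1.83, included 1. Summed over the 7 genes, the cluster had 29.0 CPM in ARPC4 ko, 14.0 CPM in Nrf2-EGFP and 16.5 CPM in wt, and Gstm1 and Gstm5 made up 571 of 704 counts in ARPC4 ko, 282 of 347 in Nrf2-EGFP and 295 of 371 in wt. The ratio of these sums was 1.76 (1.55 to 1.996) for ARPC4 ko over wt and 0.85 (0.73 to 0.98) for Nrf2-EGFP over wt. Ampd2, which encodes an AMP deaminase and is the next protein-coding gene beyond Gstm4, had 78.9 CPM in ARPC4 ko, 70.5 CPM in Nrf2-EGFP and 64.6 CPM in wt, a smaller difference. Eps8l3, the gene before Gstm5, had 0 counts in all 3 libraries, which allows up to 0.133 CPM (3 counts) in wt.

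**Figure D3:**
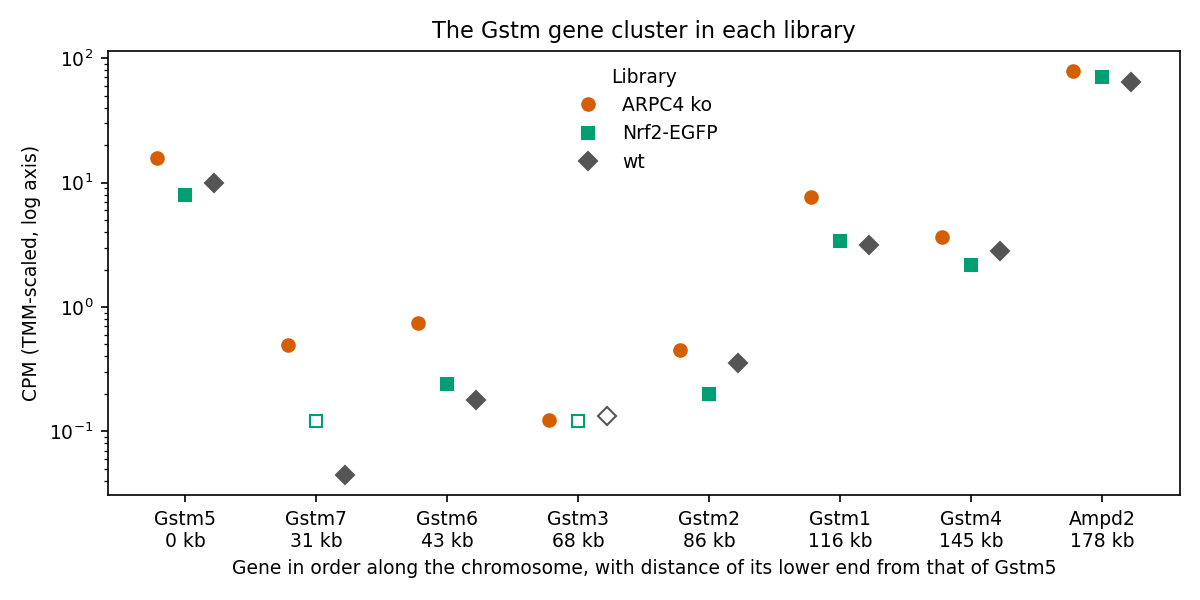
CPM (TMM-scaled, log axis) of the 7 Gstm genes and of Ampd2, in order along the chromosome with the distance of each lower end from that of Gstm5, in the ARPC4 ko (circles), Nrf2-EGFP (squares) and wt (diamonds) libraries. Open symbols mark 0 counts, drawn at the level of 3 counts, so a library with 1 count can lie below them. The ARPC4 ko value is the highest wherever the gene has counts in all 3 libraries.

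Of the other cytosolic genes, Gsto1 was lower in ARPC4 ko, whereas Gstp1 and Gstz1 lay close together in the 3 libraries. Gsto1 (chromosome 19, 47854970 to 47864790, plus strand) is an omega-class enzyme that acts mainly as a thioltransferase and dehydroascorbate reductase. It had 6780 counts (279 CPM) in ARPC4 ko, 9007 counts (362 CPM) in Nrf2-EGFP and 9448 counts (420.2 CPM) in wt. The intervals did not overlap, so the order ARPC4 ko, Nrf2-EGFP, wt was larger than counting error. Gsto1 was 1.51-fold lower (1.46 to 1.55) in ARPC4 ko than in wt and 1.16-fold lower (1.13 to 1.19) in Nrf2-EGFP than in wt, and neither difference reached the size rule. Its neighbour Gsto2, 743 bases away, had 1.19 CPM in ARPC4 ko, 1.33 CPM in Nrf2-EGFP and 0.934 CPM in wt, with intervals of both ratios that include 1. Gstp1, the pi-class enzyme and a common marker of Nrf2 activity in rodents, had 1085 counts (44.6 CPM) in ARPC4 ko, 1298 counts (52.2 CPM) in Nrf2-EGFP and 1075 counts (47.8 CPM) in wt. These lie within a narrow band, with a ratio of 0.93 (0.86 to 1.02) for ARPC4 ko over wt and of 1.09 (1.01 to 1.19) for Nrf2-EGFP over wt. Gstz1 (chromosome 12, 87147165 to 87164723, plus strand) encodes maleylacetoacetate isomerase of tyrosine breakdown and had 723 counts (29.7 CPM) in ARPC4 ko, 656 counts (26.4 CPM) in Nrf2-EGFP and 656 counts (29.2 CPM) in wt. Both of its ratios over wt had intervals that include 1, from 0.92 to 1.13 for ARPC4 ko and from 0.81 to 1.01 for Nrf2-EGFP. Pomt2, on the opposite strand, overlaps 9.14% of its exon bases.

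The microsomal genes did not move together. Mgst1 (chromosome 6, 138140316 to 138156755, plus strand), a transferase and peroxidase of the endoplasmic reticulum and outer mitochondrial membrane, had 88 counts (3.62 CPM) in ARPC4 ko, 23 counts (0.926 CPM) in Nrf2-EGFP and 64 counts (2.85 CPM) in wt. Nrf2-EGFP was the low library, and the intervals of ARPC4 ko and wt overlapped. Mgst1 was 3.07-fold lower (1.88 to 5.19) in Nrf2-EGFP than in wt, past the size rule, and its ARPC4 ko over wt ratio was 1.27 (0.91 to 1.78). Mgst2 (chromosome 3, 51660360 to 51682677, plus strand), a leukotriene-forming enzyme, had 12 counts (0.494 CPM) in ARPC4 ko, 4 counts (0.161 CPM) in Nrf2-EGFP and 36 counts (1.60 CPM) in wt. It passed the filter through wt alone, the library where it was highest, so its calls as lower are not independent of the filter. Mgst2 was 3.24-fold lower (1.65 to 6.85) in ARPC4 ko than in wt and 9.94-fold lower (3.56 to 38.5) in Nrf2-EGFP than in wt, both past the rule. The next gene on one side, Maml3, a Notch coactivator gene, was also lowest in Nrf2-EGFP, with 8.47 CPM in ARPC4 ko, 5.55 CPM in Nrf2-EGFP and 13.0 CPM in wt. Maml3 was past the rule as lower in Nrf2-EGFP than in wt, with a log2 ratio of -1.16. Setd7, on the other side, had 135 CPM in ARPC4 ko, 126 CPM in Nrf2-EGFP and 186 CPM in wt, short of the rule. Mgst3 (chromosome 1, 167371966 to 167393841, minus strand), a membrane-bound glutathione peroxidase, had 729 counts (30.0 CPM) in ARPC4 ko, 1134 counts (45.6 CPM) in Nrf2-EGFP and 1112 counts (49.5 CPM) in wt. ARPC4 ko was the low library, by 1.65-fold (1.501 to 1.81) against wt, and for Nrf2-EGFP over wt the ratio was 0.92 (0.85 to 1.003).

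Counted over the family, 1 member was past the size rule as higher in ARPC4 ko than in wt (Gstm1) and 1 as lower (Mgst2), where 6.76% of all 11865 genes above the filter passed in either direction, 4.7% as higher and 2.06% as lower. Mgst2 entered this count, and that of Nrf2-EGFP against wt, through its wt level alone, so it does not count as support. Passing depended on the level. In that comparison 17.7% of genes averaging under 10 CPM passed, as did 3.9% of those between 10 and 100 CPM and 1.94% of those at 100 CPM or more. The interval excluded 1 for 6 of the 10 members, Gstm2 below the filter among the 10, beside 66.3% of all genes above the filter. In Nrf2-EGFP against wt, Gsta4 passed as higher and Mgst1 and Mgst2 as lower, 3 members where 5.61% of all genes did so (higher for 3.57%, lower for 2.05%). By level, 14.2% of genes under 10 CPM passed in Nrf2-EGFP against wt, 3.47% of those between 10 and 100 CPM, where Gsta4 lies, and 1.52% of those at 100 CPM or more. The interval excluded 1 for 6 of the 10 members here too, beside 62.9% of all genes above the filter. These small counts have no replicate check, and with a pseudocount of 2 CPM or a filter of 10 CPM only Gsta4 in Nrf2-EGFP against wt stayed past the rule. The median log2 ratio of the 9 members above the filter was 0.03 in ARPC4 ko against wt, beside -0.01 over all genes, and -0.14 in Nrf2-EGFP against wt, beside 0.00 over all genes (0.0049 before rounding). Over all 10 members the medians were 0.09 and -0.18 in these comparisons. Both comparisons share the wt library. At a rule of 1.5-fold, 6 members passed in ARPC4 ko against wt, beside 2025 of all 11865 genes. Gsta4, Gstm1 and Gstm5 were higher there, and Gsto1, Mgst2 and Mgst3 lower. Gsto1 passed narrowly, at a log2 ratio of -0.590. It fell short of 1.5-fold with DESeq2 size factors (-0.582) and with total counts alone (-0.485), so its call rests on the scaling. In Nrf2-EGFP against wt 3 members passed at 1.5-fold, beside 1700 of all genes.

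**Figure D4:**
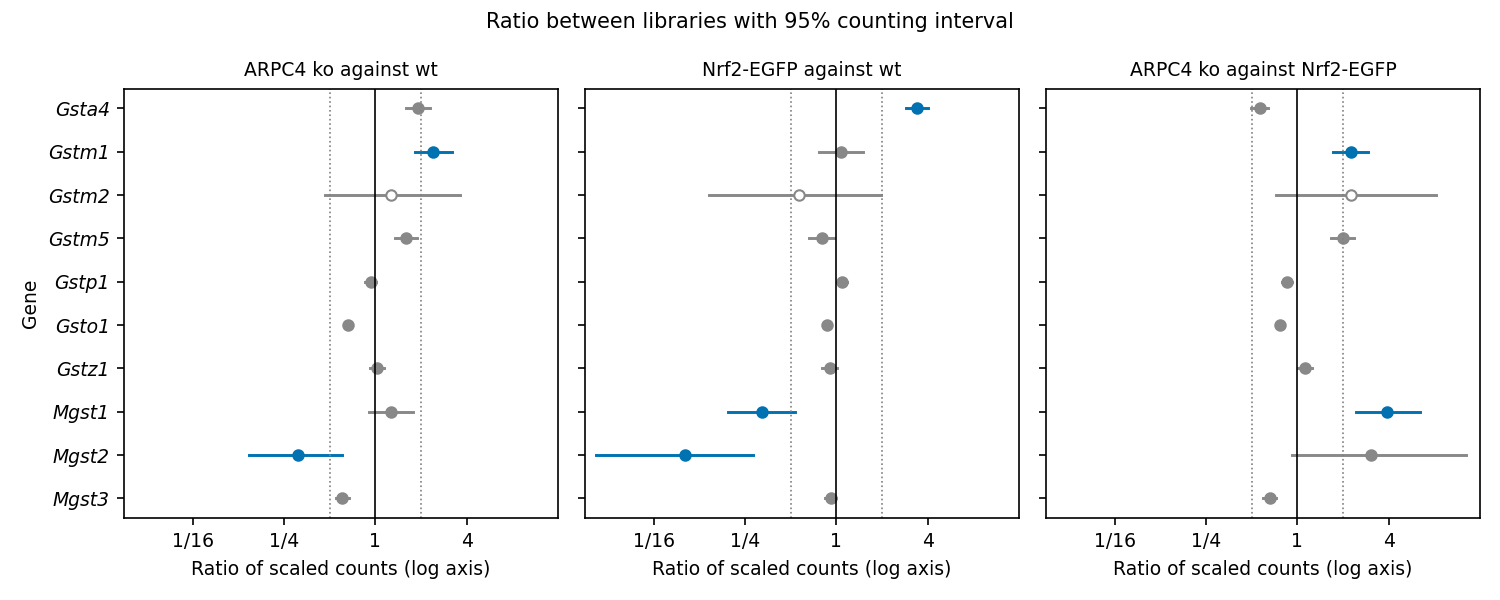
Ratio of scaled counts (log axis) of each gene in ARPC4 ko over wt, Nrf2-EGFP over wt and ARPC4 ko over Nrf2-EGFP, with 95% counting intervals and dotted lines at 2-fold. Blue marks genes past the size rule, grey the others and the open symbol Gstm2, below the filter. Gsta4 is far to the right in Nrf2-EGFP over wt (3.40), and Mgst1 is to the right in ARPC4 ko over Nrf2-EGFP (3.91).

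**Figure D5:**
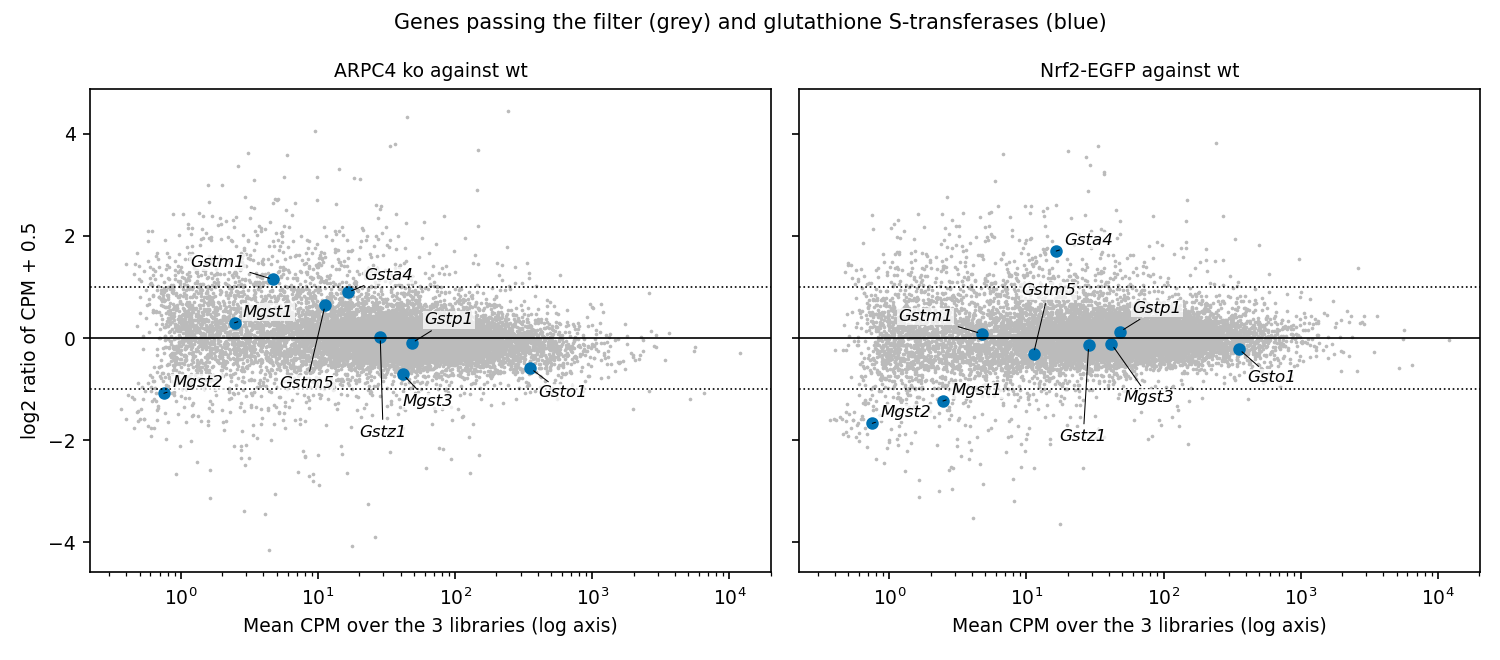
Log2 ratio of CPM + 0.5 against mean CPM over the 3 libraries (log axis) for the 11865 genes above the filter (grey) and the 9 glutathione S-transferases among them (blue), for ARPC4 ko against wt (left) and Nrf2-EGFP against wt (right). Dotted lines mark a log2 ratio of 1 and -1. Gsta4 in Nrf2-EGFP, at 1.70, lies apart from the abundant members, which stay between the lines.

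Set against each other, the ARPC4 ko and Nrf2-EGFP libraries differed past the size rule in 2 members. Gstm1 was 2.25-fold higher (1.73 to 2.95) and Mgst1 3.91-fold higher (2.45 to 6.49) in ARPC4 ko than in Nrf2-EGFP, and both were past the size rule, as were 2.98% of all genes (2.01% as higher and 0.961% as lower). By level the shares were 9.7% under 10 CPM, 1.05% between 10 and 100 CPM and 0.38% at 100 CPM or more. Gstm5 came close, at 1.99-fold higher (1.67 to 2.38), and with scaling by total counts alone it passed. Gsta4 was 1.77-fold lower (1.56 to 2.02), Mgst3 1.52-fold lower (1.39 to 1.67) and Gsto1 1.30-fold lower (1.26 to 1.34) in ARPC4 ko than in Nrf2-EGFP, short of the rule. The interval excluded 1 for 8 of the 10 members, Gstm2 below the filter among the 10, beside 55.4% of all genes above the filter. The median log2 ratio of the 9 members was 0.17, beside -0.02 over all genes, and it was -0.30 at a filter of 10 CPM.

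Other members of the transferase and MAPEG families were mostly low. Of 23 listed genes, 21 matched an identifier, 7 passed the filter and 14 did not. Ptges, the inducible prostaglandin E synthase and a MAPEG relative of the microsomal transferases, was the only one past the rule. Of all genes above the filter, 6.76% passed in ARPC4 ko against wt and 5.61% in Nrf2-EGFP against wt. Ptges had 2569 counts (106 CPM) in ARPC4 ko, 2039 counts (82.1 CPM) in Nrf2-EGFP and 650 counts (28.9 CPM) in wt. Both engineered libraries were above wt, with ratios of 3.66 (3.35 to 3.99) for ARPC4 ko and 2.84 (2.60 to 3.11) for Nrf2-EGFP. Gstk1, the mitochondrial kappa-class gene, had 4.81 CPM in ARPC4 ko, 4.02 CPM in Nrf2-EGFP and 5.91 CPM in wt. Gstt3, of the theta class, had 2.71 CPM in ARPC4 ko, 1.61 CPM in Nrf2-EGFP and 1.73 CPM in wt. Gsta2 and Gstp3 had 0 counts in every library.

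The steps around the transferases were read from lists of pathway genes. Counts past the rule in these lists stand beside 6.76% of all genes above the filter in ARPC4 ko against wt. The share was 5.61% in Nrf2-EGFP against wt and 2.98% in ARPC4 ko against Nrf2-EGFP. Glutathione synthesis, recycling and turnover had 13 of 16 genes above the filter. None of them passed as higher against wt, and 2 passed as lower in ARPC4 ko and 1 in Nrf2-EGFP. The genes lower in ARPC4 ko were Cth, which makes cysteine from cystathionine, at 48.5 CPM in ARPC4 ko, 65.3 CPM in Nrf2-EGFP and 128 CPM in wt, and Chac1, which degrades glutathione, at 43.0 CPM in ARPC4 ko, 55.7 CPM in Nrf2-EGFP and 91.6 CPM in wt. The gene lower in Nrf2-EGFP was Cbs, with 18 counts there and 48 in wt, and its call was lost with a pseudocount of 2 CPM and with a filter of 10 CPM. The median log2 ratio of the 13 genes was -0.45 in ARPC4 ko against wt and -0.21 in Nrf2-EGFP against wt, beside the medians over all genes near 0. Scaling by total counts alone left 1 gene past the rule in ARPC4 ko against wt. Of the 12 measured glutathione-using enzymes outside the family, such as peroxidases and glutaredoxins, none passed in any comparison, and their medians were -0.30 in ARPC4 ko and -0.27 in Nrf2-EGFP against wt.

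Among 10 measured genes of conjugate export and the mercapturate steps, Abcc3, a pump for organic anions and glutathione conjugates, passed as higher in Nrf2-EGFP. It had 374 counts (15.4 CPM) in ARPC4 ko, 518 counts (20.8 CPM) in Nrf2-EGFP and 202 counts (8.98 CPM) in wt, the same order of libraries as for Gsta4, with ratios over wt of 1.71 (1.44 to 2.04) in ARPC4 ko and 2.32 (1.97 to 2.74) in Nrf2-EGFP. Abcc1, the main exporter of glutathione conjugates, had 294 CPM in ARPC4 ko, 415 CPM in Nrf2-EGFP and 279 CPM in wt and did not pass. None of the export genes passed in ARPC4 ko against wt. Of 21 measured detoxification enzymes outside the family, 2 passed as higher and 1 as lower in ARPC4 ko against wt, and 1 as higher in Nrf2-EGFP against wt. Aldh2, the mitochondrial aldehyde dehydrogenase, was 4.09-fold higher (3.60 to 4.65) in ARPC4 ko than in wt, with 54.0 CPM in ARPC4 ko, 12.3 CPM in Nrf2-EGFP and 13.2 CPM in wt. Aldh3a1, another aldehyde dehydrogenase, had 60 counts in ARPC4 ko, 41 in Nrf2-EGFP and 4 in wt and passed in both. At 2.47 CPM in ARPC4 ko and 0.178 CPM in wt, it did not reach the filter through wt. Its calls as higher are therefore not independent of the filter. In Nrf2-EGFP against wt, none of the detoxification genes passed with a pseudocount of 2 CPM or a filter of 10 CPM, so the call of Aldh3a1 was lost. In ARPC4 ko against wt its call was lost with the filter of 10 CPM, which left 2 detoxification genes past the rule. Nqo1, a quinone reductase and the usual readout of Nrf2, was the lower one, with 11.1 CPM in ARPC4 ko, 12.9 CPM in Nrf2-EGFP and 24.5 CPM in wt. None of the 10 genes of Nrf2 and its direct partners passed in either comparison with wt. With 6.76% and 5.61% of all genes above the filter passing there, no pass in a list this short says little. At a rule of 1.5-fold, 2 of the 10 passed in each comparison with wt, as did 2025 and 1700 of all 11865 genes.

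Promoter windows from RefSeq (GRCm38.p6), 250 bases before to 50 after each start, matched 9 of the 10 members, all but Gsta4. The windows were searched on both strands for TGACNNNGC, the core of the antioxidant response element, and for TGANTCA, the core bound by AP-1 proteins, which reads the same on both strands. TGACNNNGC was found in 2 of the 9 members, beside 14% of all 27025 genes with a window (12.4% of 32851 windows), and TGANTCA in 3 of the 9, beside 8.97% of genes (7.81% of windows). The matches are printed on the strand of the gene, with the match in capitals, because Mgst1 and Mgst2 were past the size rule and Gstp1 and Gstm5 offer a contrast.
Mgst1 (TGACNNNGC on the opposite strand, chr6:138140461-138140489, plus): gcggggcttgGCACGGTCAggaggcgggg
Gstm5 (TGACNNNGC, chr3:107895802-107895830, plus): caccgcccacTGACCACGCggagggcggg
Gstm5 (TGANTCA, chr3:107895668-107895694, plus): ctgtgcaacaTGACTCAcgcttcccgg
Mgst2 (TGANTCA, chr3:51661117-51661143, plus): ccaatcctgtTGACTCAactctgttgc
Gstp1 (TGANTCA, chr19:4037970-4037996, minus): tccaacgtgtTGAGTCAgcatccgggg
The Mgst1 match lies at positions -56 to -48 from the start, the Gstm5 matches at -42 to -34 and -176 to -170, the Mgst2 match at -52 to -46 and the Gstp1 match at -74 to -68. The genes with a match include members that were lower in Nrf2-EGFP than in wt (Mgst1, Mgst2) and members that did not pass (Gstm5, Gstp1). Mgst2 passed the filter through wt alone, so its call does not count as support here either. Gstm1, which passed in ARPC4 ko, had neither string in its windows. Whether a match goes with a direction was not tested, and Gsta4 had no window to search. A match of letters is a description and does not show binding, and no match says only that these letters are not in the window. Other forms of these elements were not searched, in Gstp1 or in any other member.

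For the members past the rule against wt, the genes with the most similar pair of log2 ratios against wt were sought among 9066 named protein-coding genes with at least 10 CPM in a library. Likeness was the Euclidean distance over those 2 ratios, which rest on 3 libraries and share the wt library. Nearest to Gsta4 were Hlf (distance 0.046), Fxyd5 (0.066) and Sorcs2 (0.0997), and 48 genes lay within 0.5. Nearest to Gstm1 were Tlr2 (0.032), Tcn2 (0.038) and Irf9 (0.057), with 99 genes within 0.5. Mgst1 had only 8 genes within 0.5, of which Ccl20 (0.129), Creld1 (0.202) and Timp3 (0.386) were the nearest. Nearest to Mgst2, which passed the filter through wt alone, were Atf5 (0.049), Grhl1 (0.071) and Kcnj15 (0.140), with 16 genes within 0.5. All these log2 ratios include the pseudocount of 0.5 CPM, which shrinks those of Mgst2, and to a lesser degree those of Mgst1, because their counts were low. Without it Mgst2 was 9.94-fold lower (3.56 to 38.5) in Nrf2-EGFP than in wt, whereas Atf5 had 66.5 CPM in Nrf2-EGFP and 219 CPM in wt. The likeness to Mgst2 therefore holds for the shrunken ratios only. Mgst1 was 3.07-fold lower (1.88 to 5.19) in Nrf2-EGFP than in wt without the pseudocount. Its nearest gene, Ccl20, had 5.15 CPM in Nrf2-EGFP and 12.7 CPM in wt. The likeness to Mgst1 was likewise measured on shrunken ratios.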

How the data were processed

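RNA of 3 keratinocyte cultures was sequenced, 1 library per genotype (ARPC4 ko, Nrf2-EGFP, wt). TRIzol extraction, strand-specific libraries (TruSeq Stranded mRNA) and single-end 65 bp reads are given per the labels' protocols. TopHat2 2.1.0, Bowtie 1.1 and HTSeq are named with the mm10 build in the submitters' processing notes, and the sources used here state neither their settings, nor strand use, nor the annotation release. The authors deposited raw read counts per gene. Non-gene totals, 8.22% to 9.08% of entries, were left out.

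Symbols, exon lengths and transcripts came from GENCODE M21 (GRCm38, the same assembly as mm10), and 40340 identifiers had a symbol. Libraries were scaled with TMM (edgeR 4.0.16, R 4.3.3). The filter kept the 11865 genes that reached 1 CPM in any library. The pseudocount was 0.5 CPM, and the intervals were exact Clopper-Pearson (ratios) or Poisson (levels) at 95%, covering counting error only, since PCR copies cannot be told from separate molecules. The scaling, filter and rule ran over all genes and were tested on simulated data. Alternatives were DESeq2 1.42.0 size factors, total counts, a pseudocount of 2 CPM, other filters and a 1.5-fold rule. Windows of 65 bases were compared with all transcripts of other, non-overlapping genes at up to 2 mismatches.

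Named were all members, Arpc4 and Nfe2l2, up to 4 genes past the rule per list and comparison, Gstm cluster genes and neighbours, and the 3 nearest patterns. Other genes named with values, and the Mgst2, Gstm5 and Gstp1 stretches, were chosen after their values were seen. The members and lists were chosen with earlier results of these data known. Symbols of Gsta13 and Gm3776 were not matched. No protein sequences were used here.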

Additional observations from a re-analysis of the deposited data

How the results depend on the processing

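No paired analysis was possible because each genotype has 1 library, and for the same reason no library could be left out. With DESeq2 size factors the same members passed the size rule in each comparison. With total counts alone the medians of the members were 0.13 in ARPC4 ko against wt and 0.29 in ARPC4 ko against Nrf2-EGFP, while the median of all genes moved to 0.09 and 0.11, and the split over all genes in ARPC4 ko against wt was 683 higher and 198 lower, beside 558 and 244 with TMM. With a pseudocount of 2 CPM, 0 members passed in ARPC4 ko against wt, 1 (Gsta4) in the comparison of Nrf2-EGFP with wt and 0 in ARPC4 ko against Nrf2-EGFP, and 454, 362 and 147 of all genes did in the same order. With a filter of 10 CPM the members were 0, 1 and 0 and all genes 374, 334 and 114, and the medians of the members were -0.035 in ARPC4 ko against wt and -0.30 in ARPC4 ko against Nrf2-EGFP. Fewer genes are compared under that filter by construction, and Gstm1, Mgst1 and Mgst2 are among those it removes. With no filter the median in ARPC4 ko against Nrf2-EGFP was 0.31, since Gstm2 entered. At the 1.5-fold rule the members past it were 6 in ARPC4 ko against wt and 5 in ARPC4 ko against Nrf2-EGFP, and all genes were 2025, 1700 and 1095. Gsto1 was among the 6 under TMM scaling, but not with DESeq2 size factors or total counts alone. No log2 ratio of a member past the rule changed sign under the alternatives of scaling and pseudocount. Depth limits Gstm2, Mgst1 and Mgst2, which had between 4 and 88 counts.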
